A study of Mus musculus with 4 samples.

Results

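Chemokines are small secreted proteins that bind receptors on leukocytes and direct where these cells move. The 10 genes described here are Cxcl1, Cxcl2, Cxcl9, Cxcl10, Cxcl12, Cxcl13, Cxcl16, Ccl2, Ccl6 and Ccl9. They were taken by gene symbol from a table of 22155 genes, and all 10 were found. Messenger RNA was sequenced in whole liver of wild-type C57BL/6 mice, an inbred strain, aged 8 to 10 weeks. Both groups received a Lieber-DeCarli liquid diet with 5% ethanol for 10 days. The group called gavage here then received an ethanol binge of 5 g per kg body weight by stomach tube and was killed 9 h later, while the group called ethanol alone carries no binge in its label. Each group held 2 libraries, so no untreated or pair-fed liver is compared here. Whether each library stands for its own animal is not in the labels, so a p-value here reflects the spread among 4 libraries, which may be technical. Library totals ran from 28791281 to 30347558 counts.

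Chemokines are named by the spacing of their leading cysteines, as CXC or CC ligands. CXC ligands with the ELR motif, among them Cxcl1 and Cxcl2, bind the receptor Cxcr2 and draw neutrophils. CC ligands such as Ccl2 mainly draw monocytes and macrophages, and the interferon-inducible CXC ligands Cxcl9 and Cxcl10 draw T cells and natural killer cells through Cxcr3. Several liver cells can make them, including hepatocytes, Kupffer cells (the resident macrophages), sinusoidal endothelium and stellate cells. In whole tissue, fewer cells of a type and less RNA per cell cannot be told apart.

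Cxcl1 was the chemokine with the widest difference between the groups, and it stood higher after the gavage. The other 8 chemokines that could be tested had log2 fold changes from -1.02 (Ccl2) to 0.49 (Cxcl13), and Cxcl2 had too few counts to test. After Benjamini-Hochberg adjustment over 13309 genes, edgeR's quasi-likelihood test called none (0 called, 0% of those tested), so no chemokine is said here to have changed. Of the 9 chemokines tested, 2 had an unadjusted p under 0.05, against 18.8% of all tested genes in either direction. These were Cxcl1 on the higher side (8.91% of all genes) and Cxcl9 on the lower side (9.85%). For 7 of the 9, the range of one group lay wholly outside that of the other, as for 54.7% of all tested genes, with 2 of them higher (27.5% of all genes) and 5 lower (27.2%). By direction alone, 3 of the 9 lay higher and 6 lower, with a median log2 fold change of -0.39, beside 51.7% higher, 48.3% lower and a median of 0.02 over all genes. Nothing particular to the chemokines as a set is read from these counts.

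**Figure D1:**
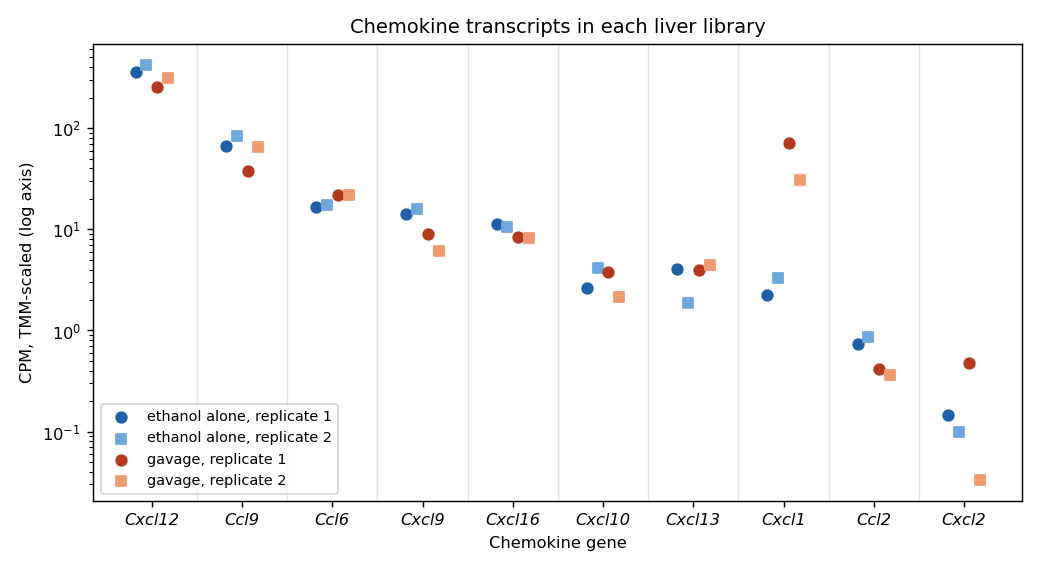
CPM (counts divided by the library size after scaling for composition) of the 10 chemokines on a log axis, 1 point per library, with genes ordered by their mean in ethanol alone. Cxcl1 stands at 70.6 and 30.7 CPM in the gavage libraries, above its 2.23 and 3.34 CPM in ethanol alone, while the points of the other genes lie closer together.

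Cxcl1, the main neutrophil-attracting ligand detected, had 61 and 101 counts in replicates 1 and 2 of ethanol alone and 2218 and 923 counts in replicates 1 and 2 of the gavage group. These equal 2.23 and 3.34 CPM against 70.6 and 30.7 CPM, a mean of 2.78 ± 0.78 against 50.6 ± 28.3 CPM (SD, n = 2). Both gavage libraries stood above both libraries of ethanol alone, and replicate 1 of the gavage group stood highest. The log2 fold change, gavage over ethanol alone, was 4.18 (95% interval 2.92 to 5.44), an 18.1-fold difference in which the lower bound is 7.56-fold. Cxcl1 ranked 18 among the tested genes by upward fold change and was 1 of 54 genes (0.406%) more than 8-fold higher. Its unadjusted p was 3.15e-04 and its adjusted p was 0.108 in edgeR's quasi-likelihood test. DESeq2 (adjusted p = 2.26e-16) and edgeR's likelihood-ratio test (adjusted p = 5.03e-11) called it. The fold was 11.0 without replicate 1 of the gavage group, with an adjusted p of 0.113, and 25.2 without replicate 2, with an adjusted p of 0.0287 that passed the threshold.

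Cxcl2, a closely related ligand of the same receptor, had 4 and 3 counts with ethanol alone and 15 and 1 counts after the gavage. The groups overlapped, since replicate 1 of the gavage group was the highest library and replicate 2 the lowest. It passed too few libraries for the filter on low counts and was not tested. The ratio of its scaled counts was 2.14, gavage over ethanol alone, with an exact 95% counting interval of 0.833 to 6.15. With replicate 1 of the gavage group alone it was 3.93 (1.51 to 11.4), and with replicate 2 alone it was 0.273 (0.00606 to 2.13), so the direction differed between the gavage libraries. These intervals cover counting error only. A floor of 3 counts corresponds to 0.0955 to 0.11 CPM across the libraries. Cxcl2 lay at 0.0332 to 0.146 CPM in 3 libraries, near that floor, and at 0.478 CPM in replicate 1 of the gavage group.

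Cxcl1 (chromosome 5, 90891241 to 90893115, plus strand) and Cxcl2 (chromosome 5, 90903871 to 90905938, plus strand) are neighbours 10.8 kb apart in the GENCODE annotation of GRCm38. Their promoters are shown because the neighbours share a sequence element, and whether it bears on their counts was not tested. The windows span 220 bases on the plus strand, ending 31 bases before the RefSeq start, at chr5:90890995-90891214 and chr5:90903649-90903868 in GRCm38.p6. Capitals mark matches to the NF-kB consensus, the recognition sequence of the inflammatory transcription factor NF-kB, found on both strands by overlapping matches.
Cxcl1: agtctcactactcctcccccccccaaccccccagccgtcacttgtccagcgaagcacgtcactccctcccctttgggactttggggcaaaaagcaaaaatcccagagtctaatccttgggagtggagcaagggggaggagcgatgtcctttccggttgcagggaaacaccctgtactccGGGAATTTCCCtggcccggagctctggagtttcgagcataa
Cxcl2: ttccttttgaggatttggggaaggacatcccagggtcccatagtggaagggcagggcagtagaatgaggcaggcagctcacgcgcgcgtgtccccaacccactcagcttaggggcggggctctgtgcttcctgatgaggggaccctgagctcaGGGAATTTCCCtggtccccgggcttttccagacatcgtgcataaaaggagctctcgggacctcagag
Both hold the same 11-base run GGGAATTTCCC, which begins 71 bases before the start in Cxcl1 and 97 bases before it in Cxcl2. Of 32851 RefSeq promoter windows of 250 bases, 14 (0.0426%) hold that run on either strand and 3.9% hold any match to the NF-kB consensus. The run was taken from the Cxcl1 and Cxcl2 windows themselves, so its share is no measure of how unusual their sharing it is. A match describes the letters and does not show that a factor was bound.

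Ccl2, the principal monocyte attractant and ligand of Ccr2, was rare in all libraries, with 20 and 26 counts in ethanol alone and 13 and 11 after the gavage. Both gavage libraries lay below both of ethanol alone, at 0.414 and 0.365 against 0.732 and 0.859 CPM. The log2 fold change was -1.02 (95% interval -2.28 to 0.24, edgeR unadjusted p = 0.0925, adjusted p = 0.33). Ccl2 (chromosome 11, 82035571 to 82037453, plus strand) lies within the span of Gm17268 on the other strand, which shares 0 exonic bases with it and had no counts.

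Ccl6 and Ccl9 are CC ligands of rodents that bind Ccr1 and are made largely by myeloid cells. They are neighbours on the minus strand of chromosome 11, Ccl9 at 83572919 to 83578636 and Ccl6 at 83587882 to 83593087, 9.25 kb apart. Ccl6 lay higher after the gavage, at 685 and 664 counts against 450 and 528, or 21.8 and 22.1 against 16.5 and 17.4 CPM. The groups did not overlap and their replicates lay close together, with a log2 fold change of 0.37 (95% interval -0.02 to 0.76, edgeR unadjusted p = 0.0569, adjusted p = 0.276).

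Ccl9 lay lower, with 1180 and 1947 counts in replicates 1 and 2 of the gavage group against 1799 and 2536 in ethanol alone, or 37.6 and 64.7 against 65.9 and 83.8 CPM. The gap between the groups was narrow, since replicate 2 of the gavage group reached almost the level of replicate 1 of ethanol alone. Its log2 fold change was -0.55 (95% interval -1.34 to 0.24, edgeR adjusted p = 0.389), and it was -0.21 without replicate 1 of the gavage group and -1.001 without replicate 2 (adjusted p = 0.404). Per kilobase of exon, Ccl9 exceeded Ccl6 2.36-fold and 2.83-fold in ethanol alone and 1.02-fold and 1.73-fold after the gavage. This ratio does not depend on how libraries are scaled, and its groups did not overlap. It was chosen after the values were seen, and an exact 2-sided permutation test gave p = 0.333, the smallest p that 2 against 2 libraries allow.

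Cxcl9 and Cxcl10 are induced by interferons, Cxcl9 chiefly by interferon gamma, and bind Cxcr3. Cxcl9 had 391 and 484 counts in ethanol alone and 283 and 184 after the gavage, or 14.3 and 16.0 against 9.01 and 6.11 CPM. Both gavage libraries lay below both of ethanol alone, and replicate 2 was the lowest. The mean was 7.56 ± 2.05 against 15.2 ± 1.18 CPM (SD, n = 2), a log2 fold change of -1.002 (95% interval -1.65 to -0.36). Its unadjusted p was 0.00998 and its adjusted p was 0.175 in edgeR's quasi-likelihood test, while DESeq2 gave an adjusted p of 0.0287, past the threshold.

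Cxcl10 had 72 and 125 counts in ethanol alone and 118 and 65 after the gavage, or 2.64 and 4.13 against 3.76 and 2.16 CPM. The groups overlapped, with replicate 2 highest in ethanol alone and lowest after the gavage. The log2 fold change was -0.19 (95% interval -1.23 to 0.85, edgeR unadjusted p = 0.655, adjusted p = 0.832), an interval from 0.426-fold to 1.8-fold. Leaving out replicate 2 of either group turned the direction, to 0.12 for ethanol alone and to 0.14 for the gavage group. Cxcl11, a neighbouring gene not among the 10 that the GENCODE annotation lists as a polymorphic pseudogene, had 57 and 104 counts against 102 and 131 after the gavage, with overlap and a log2 fold change of 0.46 (edgeR adjusted p = 0.529). The ratio of Cxcl9 to Cxcl10 per kilobase of exon was 4.05 and 2.89 in ethanol alone and 1.79 and 2.11 after the gavage. These ratios, which were not among the planned results, did not overlap. The exact 2-sided permutation test gave p = 0.333, again the smallest it can give, so it cannot decide whether the groups differ.

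Cxcl9 (chromosome 5, 92321347 to 92328079) and Cxcl10 (chromosome 5, 92346638 to 92348889) lie 18.6 kb apart on the minus strand, and Cxcl11 lies a further 10.7 kb away. The promoters of the pair are shown for their sequence, and whether their elements bear on the counts was not tested. They are given on the minus strand, 220 bases at chr5:92328110-92328329 and chr5:92348920-92349139 in GRCm38.p6, with capitals for matches to the NF-kB consensus on either strand.
Cxcl9: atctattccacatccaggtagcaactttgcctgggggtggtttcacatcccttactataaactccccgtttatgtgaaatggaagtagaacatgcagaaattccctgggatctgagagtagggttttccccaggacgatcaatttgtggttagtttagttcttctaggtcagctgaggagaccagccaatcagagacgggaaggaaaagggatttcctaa
Cxcl10: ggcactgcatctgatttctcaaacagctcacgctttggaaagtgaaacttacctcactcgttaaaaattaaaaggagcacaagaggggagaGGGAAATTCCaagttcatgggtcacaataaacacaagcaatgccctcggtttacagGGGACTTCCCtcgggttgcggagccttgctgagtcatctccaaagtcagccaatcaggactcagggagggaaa
Cxcl10 holds NF-kB matches that begin 159 and 103 bases before its start. Cxcl9 holds none in this window, which says only that these letters are not there. Of the 10 chemokines, 8 had a RefSeq promoter window, and Cxcl16 and Ccl2 had none in the table used. An NF-kB match was found in 4 of the 8 (Cxcl1, Cxcl2, Cxcl10 and Ccl9) and an AP-1 match (TGANTCA) in 2, Cxcl10 and Ccl9, beside 6.75% of all windows. Exons of Cxcl10 share 133 bases with Art3 on the other strand. Since the strand setting of the counting is not given in the sources used here, reads there could belong to either gene. Art3 had 83 and 65 counts in ethanol alone and 148 and 44 after the gavage.

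Cxcl12, a constitutive ligand of Cxcr4 that retains haematopoietic and immune cells in tissues, was the most abundant of the 10 in counts in every library. It had 9843 and 12815 counts in ethanol alone and 8100 and 9434 after the gavage. The corresponding 360 and 423 against 258 and 313 CPM did not overlap, with both gavage libraries lower. Its log2 fold change was -0.46 (95% interval -1.05 to 0.14, edgeR unadjusted p = 0.106, adjusted p = 0.35). Cxcl12 lies on chromosome 6, 117168535 to 117181367, plus strand, outside the CXC clusters of chromosome 5.

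Cxcl13, a ligand of Cxcr5 that guides B cells, had 111 and 57 counts in ethanol alone and 124 and 133 after the gavage. At 4.06 and 1.88 against 3.95 and 4.42 CPM, 3 libraries lay together and replicate 2 of ethanol alone stood low. The log2 fold change was 0.49 (95% interval -0.58 to 1.56, edgeR adjusted p = 0.56). With replicate 2 of ethanol alone left out it was -0.01, and with replicate 1 left out it was 1.12, so the sign rests on that group's libraries. Cxcl13 lies on chromosome 5, 95956951 to 95961068, plus strand.

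Cxcl16, made as a membrane-anchored ligand of Cxcr6 and released by shedding, had 307 and 322 counts in ethanol alone and 266 and 247 after the gavage. The 11.2 and 10.6 against 8.47 and 8.20 CPM did not overlap, and replicates of each group lay close together. Its log2 fold change was -0.39 (95% interval -0.86 to 0.08, edgeR unadjusted p = 0.0846, adjusted p = 0.319). Cxcl16 (chromosome 11, 70453983 to 70459984, minus strand) shares 552 exonic bases with Zmynd15 on the other strand, which had 169 and 152 counts in ethanol alone and 118 and 123 after the gavage. As the strand setting of the counting is not given, reads in the shared bases could belong to either gene.

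**Figure D2:**
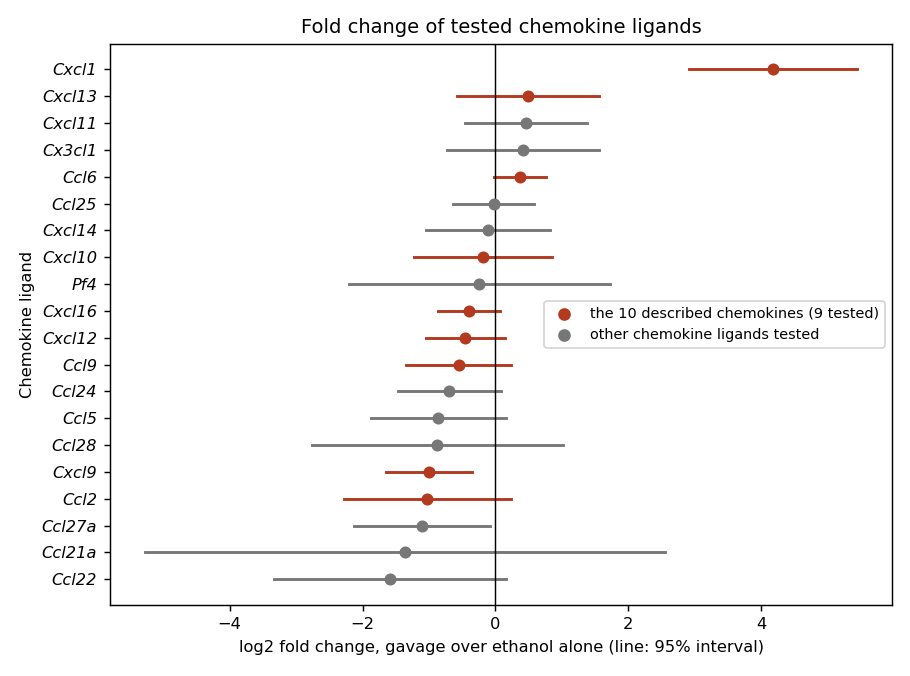
Log2 fold change, gavage over ethanol alone, of the chemokine ligands that passed the filter on low counts, with 95% intervals as lines, the described chemokines in red and other ligands in grey. The interval of Cxcl1 runs from 2.92 to 5.44, and those of Cxcl9 and Ccl27a are the other 2 that leave out 0.

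Levels can be compared between genes only per length, here as RPKM, the CPM per kilobase of merged exons. In ethanol alone the order was Cxcl12 (44.1 and 51.8 RPKM), Ccl9 (21.6 and 27.5), Ccl6 (9.18 and 9.72), Cxcl9 (4.75 and 5.30), Cxcl16 (3.72 and 3.52) and Cxcl13 (3.53 and 1.64). Cxcl10 (1.17 and 1.83 RPKM) and Cxcl1 (1.19 and 1.78) followed, then Ccl2 (0.643 and 0.755) and Cxcl2 (0.0708 and 0.0479). The ranges of Cxcl16 and Cxcl13 overlapped, as did those of Cxcl13, Cxcl10 and Cxcl1 with each other, so their order is not set. After the gavage Cxcl12 (31.5 and 38.3 RPKM) and Cxcl1 (37.7 and 16.4) had overlapping ranges at the top. Ccl9 (12.3 and 21.2) overlapped with Cxcl1, and Ccl6 (12.2 and 12.3) came just below. Cxcl13 (3.43 and 3.84 RPKM), Cxcl9 (2.99 and 2.03) and Cxcl16 (2.80 and 2.72) came next, the ranges of the latter 2 overlapping. Cxcl10 (1.67 and 0.959), Ccl2 (0.364 and 0.321) and Cxcl2 (0.231 and 0.0161) were the lowest in both gavage libraries.

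Cxcl1 was 1.32% and 1.71% of the summed RPKM of the 10 in ethanol alone and 35.8% and 16.7% after the gavage. Cxcl12 was 49.0% and 49.8% in ethanol alone and 29.99% and 39.1% after the gavage. The sum itself was 90.0 and 103.9 RPKM in ethanol alone and 105.2 and 98.1 RPKM after the gavage, so the groups overlapped. Without Cxcl12 and Cxcl1 the other 8 summed to 44.7 and 50.3 RPKM against 36.0 and 43.4 RPKM, with both gavage libraries lower. In replicate 1 of the gavage group Cxcl1 exceeded Cxcl12, at a ratio of 1.19, whereas the ratio was 0.427 in replicate 2 and 0.027 and 0.0344 in ethanol alone. Shares depend on the gene models: with the length of the longest coding transcript, Cxcl1 made up 46.1% and 23.7% after the gavage and 2.03% and 2.61% with ethanol alone.

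**Figure D3:**
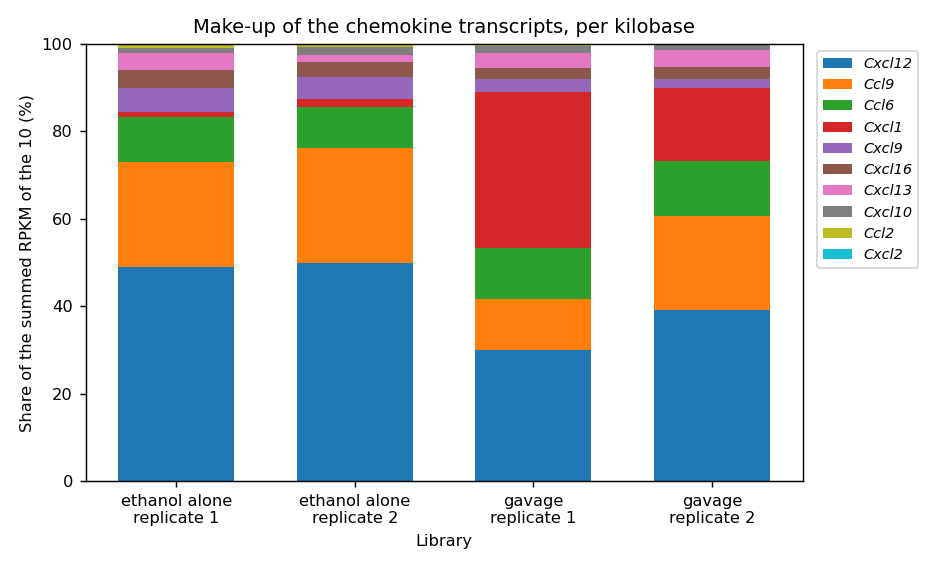
Share of each chemokine in the summed RPKM of the 10, in percent, with 1 stacked bar per library. The Cxcl1 segment takes 35.8% and 16.7% of the gavage bars and under 2% of the bars of ethanol alone, and the Cxcl12 segment is the largest in 3 of the 4 libraries.

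Of 28 other chemokine ligands in the table, 11 passed the filter on low counts and 17 were too rare to test, of which 2, Cxcl3 and Ccl26, had no counts in any library. None of the 11 passed the adjusted threshold and their median log2 fold change was -0.69. All 7 tested CC ligands had an estimate below 0, beside 48.3% of all tested genes. The 4 tested CXC and CX3C ligands split into 2 higher and 2 lower, with overlapping groups. Ccl25, the other CC ligand with the highest mean CPM, had 178 and 185 counts in ethanol alone and 166 and 214 after the gavage. Of the 7 tested CC ligands, 4 lay lower without overlap, beside 27.2% of all tested genes. Among them were Ccl24 (87 and 82 against 56 and 56 counts) and Ccl22 (10 and 13 against 5 and 3 counts), both ligands of leukocyte receptors on eosinophils or T cells. Ccl5 (57 and 56 against 41 and 26 counts), named after its values were seen, and Ccl27a were the others. Ccl27a had 99 and 64 against 45 and 37 counts (log2 fold change -1.10, edgeR adjusted p = 0.245). It was named after its values were seen, as the only 1 of the 11 with an unadjusted p under 0.05, beside 18.8% of all tested genes. Reads of Ccl27a may be shared among its near-identical copies. Ccl3, an inflammatory ligand of Ccr1, was not tested, with 0 and 0 counts in ethanol alone and 3 and 7 after the gavage; it was named after its values were seen.

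Receptors of the described ligands had low counts, at most 110 in any library. Cxcr2, the receptor of Cxcl1 and Cxcl2, had 4 and 10 counts in ethanol alone and 34 and 8 in replicates 1 and 2 of the gavage group. Its high value was confined to 1 library, replicate 1 of the gavage group, and it did not pass the filter. Ccr1, the receptor of Ccl6 and Ccl9, had 8 and 10 against 23 and 8 counts, with the same library high and no test. Ccr2, the receptor of Ccl2, had 59 and 60 against 110 and 44 counts (log2 fold change 0.26, edgeR adjusted p = 0.806). Cxcr3, the receptor of Cxcl9 and Cxcl10, had 21 and 23 against 17 and 16 counts (log2 fold change -0.51, edgeR adjusted p = 0.591). Cxcr4 had 37 and 14 against 33 and 16 counts, Cxcr5 15 and 8 against 12 and 2, and Cxcr6 44 and 28 against 34 and 18. In these last 3 receptors, replicate 1 exceeded replicate 2 in both groups. Of 17 signalling receptors, 9 were tested, and 1 (Ccr2) lay higher and 8 lower, beside 51.7% and 48.3% of all tested genes. An unadjusted p under 0.05 was found for 0 of the 9, beside 18.8% of all tested genes.

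**Figure D4:**
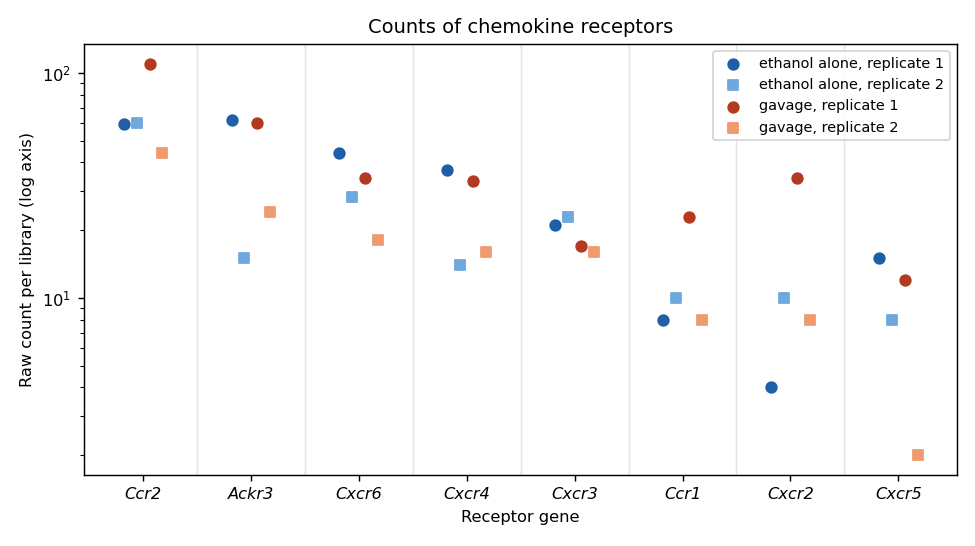
Raw counts of chemokine receptors on a log axis, 1 point per library. Cxcr2, Ccr1 and Ccr2 are highest in replicate 1 of the gavage group (34, 23 and 110 counts), and Ackr3, Cxcr4, Cxcr5 and Cxcr6 are higher in replicate 1 than in replicate 2 of both groups.

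Atypical receptors bind chemokines without classical signalling and remove them. Gpr182, an endothelial scavenger of chemokines and the highest of 6 in CPM, had 45.3 and 58.3 CPM in ethanol alone and 41.1 and 53.5 CPM after the gavage, with overlap (log2 fold change -0.13, edgeR adjusted p = 0.79). Ackr3, the second receptor of Cxcl12, had 62 and 15 against 60 and 24 counts. Ackr4, a scavenger of CC ligands, lay lower (log2 fold change -1.28, edgeR adjusted p = 0.223). It had 85 and 55 counts in ethanol alone and 30 and 32 after the gavage. Of the 6 members of this list, all tested, Ackr4 was the 1 with an unadjusted p under 0.05, beside 18.8% of all tested genes. Among proteases that cut chemokines, Adam10, which sheds Cxcl16, stood at 42.5 and 52.2 against 56.4 and 52.2 CPM and Dpp4, which trims Cxcl12 and Cxcl10, at 160 and 209 against 154 and 181 CPM. None of the 4 tested proteases had an unadjusted p under 0.05, beside 18.8% of all tested genes.

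Among cytokines that induce chemokines, Il1a had 93 and 156 counts in ethanol alone and 172 and 152 after the gavage, with overlap in CPM (log2 fold change 0.30, edgeR adjusted p = 0.612). Il1b had 31 and 68 against 56 and 72 counts, also with overlap (log2 fold change 0.30, edgeR adjusted p = 0.755). The others were too rare to test. Il6 had 2 counts in every library, Tnf 5 and 13 counts in ethanol alone and 4 and 10 after the gavage, and Il17a none. Of 9 tested cytokines and cytokine receptors, 3 had an unadjusted p under 0.05 on the higher side and 2 on the lower side, beside 8.91% and 9.85% of all tested genes, and 0 passed after adjustment. Tnfrsf1a, the main receptor of tumour necrosis factor, stood at 72.5 and 80.9 CPM in ethanol alone and 136 and 120 CPM after the gavage (log2 fold change 0.74, edgeR adjusted p = 0.184). Il1rap, the accessory chain of the interleukin-1 receptor, lay lower, at 208 and 143 against 83.1 and 121 CPM (log2 fold change -0.78, edgeR adjusted p = 0.261). Named after their values were seen, Il17ra (20.3 and 22.3 against 32.8 and 28.96 CPM) and Ifngr2 (24.9 and 21.4 against 30.6 and 35.4 CPM) also lay higher, and Tnfrsf1b (60.8 and 43.0 against 36.7 and 31.6 CPM) lower.

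Among 14 NF-kB subunits and feedback genes, 2 had an unadjusted p under 0.05 on the higher side and 1 on the lower side, near the 8.91% and 9.85% over all tested genes, with a median log2 fold change of 0.23. Rela, the transactivating subunit, stood at 50.3 and 44.3 against 56.8 and 61.0 CPM (edgeR adjusted p = 0.374). Nfkbia, the inhibitor that NF-kB itself induces, lay lower, at 86.0 and 51.5 CPM in ethanol alone and 32.1 and 22.7 CPM after the gavage (log2 fold change -1.33, edgeR adjusted p = 0.166). Ier3, an early response gene, lay higher, at 0.842 and 1.35 against 2.96 and 2.46 CPM (log2 fold change 1.30, edgeR adjusted p = 0.206). Nfkbiz, an atypical inhibitor family member that also activates some promoters and was named after its values were seen, stood at 8.86 and 11.7 against 15.9 and 17.1 CPM. Zfp36, which speeds the decay of chemokine transcripts, stood at 97.7 and 67.1 against 61.7 and 51.9 CPM (edgeR adjusted p = 0.315). Of the 14 genes, 11 had estimates above 0, as Cxcl1 did, and 3 below, Nfkbia among them, beside 51.7% and 48.3% of all tested genes. The part of NF-kB in the Cxcl1 difference was not tested.

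Of 13 interferon-gamma responsive genes, which include the usual companions of Cxcl9, 12 lay lower after the gavage, beside 48.3% of all tested genes, and 1, Cd274, higher, with a median log2 fold change of -0.41. At an unadjusted p under 0.05 there were 0 higher and 2 lower, beside 8.91% and 9.85% of all tested genes. These were Psmb9, an immunoproteasome subunit, at 16.2 and 14.3 against 7.90 and 9.83 CPM (edgeR adjusted p = 0.184), and Psmb8, named after its values were seen, at 42.6 and 29.2 against 23.7 and 20.1 CPM (edgeR adjusted p = 0.225). The interferon gamma transcript itself, Ifng, had 3 and 1 counts in ethanol alone and 0 and 1 after the gavage.

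Cell type markers also varied between the libraries. Summed neutrophil markers stood at 10.0 and 9.42 CPM in ethanol alone and 22.5 and 12.9 CPM in replicates 1 and 2 of the gavage group. Of the 15 markers, 6 could be tested, 5 of them higher and 1 lower, beside 51.7% and 48.3% of all tested genes. On the higher side, 4 of the 6 did not overlap, beside 27.5% of all tested genes. In edgeR's quasi-likelihood test 2 of them had an unadjusted p under 0.05, beside 8.91%, and 0 passed after adjustment. Among the markers too rare to test, Ly6g, with 0, 0, 0 and 2 counts, and Mpo, with 0, 2, 0 and 0 counts, were at or near 0. These counts are in the order replicates 1 and 2 of ethanol alone, then of the gavage group. S100a9 had 38 and 34 counts against 249 and 60. Summed monocyte markers stood at 13.3 and 9.42 against 24.1 and 11.9 CPM, with overlap. Of 5 tested members, 5 lay higher, beside 51.7% of all tested genes, and 2 did so without overlap, beside 27.5%. Ly6c2, which marks inflammatory monocytes and had too few counts to test, had 10 and 9 counts in ethanol alone and 6 and 4 after the gavage. The part of neutrophils and monocytes in the Cxcl1 difference was not tested.

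Kupffer cell and macrophage markers lay lower after the gavage in 12 of 13 members, beside 48.3% of all tested genes. They summed to 812 and 791 CPM in ethanol alone and 468 and 551 CPM after the gavage, with 0 members without counts in any library. On the lower side 9 of the 13 had an unadjusted p under 0.05, beside 9.85% of all tested genes, and 0 passed after adjustment. The median log2 fold change of these markers was -0.69, beside -0.39 for Cxcl16, -0.55 for Ccl9, -1.02 for Ccl2 and 0.37 for Ccl6. The part of these cells in the levels of the 4 genes was not tested. Summed T, NK and B cell markers stood at 14.2 and 7.60 CPM in ethanol alone and 10.9 and 5.31 CPM after the gavage. They were higher in replicate 1 of both groups, and 11 of 13 tested members lay lower, beside 48.3% of all tested genes. Sinusoidal endothelial markers summed to 691 and 705 against 600 and 618 CPM. Of these markers 4 lay higher and 7 lower, beside 51.7% and 48.3% of all tested genes. Stellate cells are a known source of Cxcl12, and their markers summed to 795 and 685 against 770.2 and 729 CPM, with overlap. Hepatocyte transcripts dominated as the tissue label says, with Alb alone at 2615120 to 3053177 counts per library.

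Of 6 adipose markers, 5 were higher in replicate 1 than in replicate 2 of both groups. Adipoq had 151 and 280 counts in the libraries numbered 1 and 0 and 2 in those numbered 2, and Cfd had 627 and 723 against 0 and 0. Summed, the 6 markers stood at 62.1 and 8.46 CPM in ethanol alone and 110.5 and 46.1 CPM in the gavage group. The exception was Cidec, a lipid droplet gene that fatty hepatocytes also express, which had 100 and 16 counts in ethanol alone and 494 and 1021 after the gavage (log2 fold change 3.57, edgeR unadjusted p = 0.0104, adjusted p = 0.177). Ccl11 (9 and 1 against 62 and 0 counts), Ccl21a (45 and 3 against 20 and 1), Cxcr4 and Ackr3 had the same order, with replicate 1 above replicate 2 in both groups. Of the 10 described chemokines, Cxcl2 and, by a small margin, Cxcl16 had replicate 1 above replicate 2 in CPM in both groups. Ccl6, Ccl9 and Cxcl12 had replicate 2 above replicate 1 in both groups, and the other 5 had no common order.

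**Figure D5:**
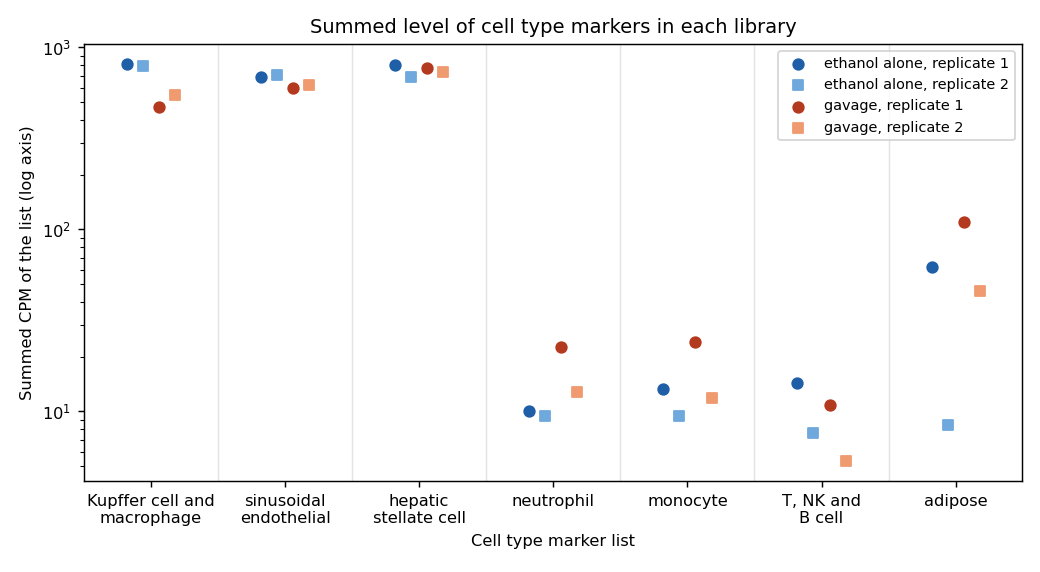
Summed CPM of cell type marker lists on a log axis, 1 point per library. Kupffer cell and macrophage markers lie lower in both gavage libraries (468 and 551 CPM against 812 and 791 CPM), neutrophil markers are highest in replicate 1 of the gavage group at 22.5 CPM, and adipose markers are higher in replicate 1 of each group.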

How the data were processed

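The deposited table holds the authors' raw counts, whole numbers by gene symbol with a column for each library. The build GRCm38 and the tools HTSeq, edgeR, STAR 2.6.0a and bcl2fastq 2.20.0.422 appear in the submitters' processing notes, without roles. Strand setting, annotation and handling of multi-mapped reads: not given in the sources used here. Groups were taken from sample titles, since the protocol text does not separate them.

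In R 4.3.3 with edgeR 4.0.16, filterByExpr (minimum count 10, minimum total 15) kept 13309 genes. CPM used TMM-scaled library sizes. The groups were compared with edgeR's 2-sided quasi-likelihood test without covariates, Benjamini-Hochberg adjusted at 0.05. An SE was derived from each log2 fold change and its F statistic, as their ratio after taking the root of F, and gave the 95% intervals with the fit's degrees of freedom. The test was run first on simulated data. RPKM used merged exons of the GENCODE annotation. Alternatives used limma 3.58.1 and DESeq2 1.42.0 among others. The 2 libraries of each group differed beyond sampling noise (chi-square per degree of freedom 150 and 165).

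The 10 genes and the 17 other lists were chosen with earlier results of these data known. All 10 were to be named, and of each other list the 2 most abundant tested members, the 2 with the widest fold change and the receptors of the 10, here where a result turns on them. By symbol, 197 list genes were found and 1 was not. Some list genes are not reported here.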

Additional observations from a re-analysis of the deposited data

How the results depend on the processing

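The count of genes called, 0 in edgeR's quasi-likelihood test (2497 at an unadjusted p under 0.05), was 1177 with DESeq2, 549 with edgeR's likelihood-ratio test and 4 with the bias-adjusted quasi-likelihood fit, which was chosen after seeing the data. It stayed at 0 with limma-voom, other scalings, no filter and the stricter filter (1 CPM in at least 2 libraries). Leaving out 1 library gave 0 to 31 calls: 12 when replicate 2 of ethanol alone and 31 when replicate 2 of the gavage group was dropped. The replicate block gave 410 calls, Cxcl1 among them (log2 fold change 4.06, adjusted p = 0.016). Libraries share only a number in the labels, although same-numbered libraries deviated together (r = 0.587 across genes, which are not independent replicates). The number of described chemokines at an unadjusted p under 0.05 was 2 and ran from 2 to 3. Cxcl1 stayed higher in all 14 alternatives (log2 fold change 3.46 to 4.65) and passed the threshold in 4. Cxcl9 stayed lower in all 14 (-1.31 to -0.76) and passed in 1. Reversals came with 1 library left out: Cxcl10 ran from -0.65 to 0.14, at 0.12 without replicate 2 of ethanol alone and at 0.14 without that of the gavage group. Cxcl13 ran from -0.0135, without replicate 2 of ethanol alone, to 1.12. The cause was not tested. Ccl9 ran from -1.001 to -0.21. Without the filter Cxcl2 had a log2 fold change of 1.03 (edgeR). Depth limits Cxcl2 and Ccl2, whose libraries held 1 to 26 counts.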
